A study of Mus musculus with 2 samples.

Results

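The genes described here are the receptors, adaptors and kinases of the ITAM co-stimulatory pathway in cells under osteoclast differentiation. They were chosen by name and comprise Oscar, Trem2, Siglec15, Tyrobp, Fcer1g, Syk, Btk, Tec, Gab2 and Plcg2, and all 10 were found among the 18987 genes of the count table. The data were read counts per gene from 2 libraries. Both were made from RAW264.7, a macrophage-like mouse line able to form osteoclasts under RANKL. One was made from cells carrying a control shRNA. For the other, called the knockdown library below, the shRNA targeted Cpeb4, which encodes an RNA-binding protein of the cytoplasmic polyadenylation element-binding family. The labels give the same handling for both: a seeding density of 7500 cells per cm2, 100 ng/ml RANKL after 24 h, and, from the series title, collection at day 3. The labels do not name the vector or the shRNA sequence, nor do they say whether the cells were 1 clone or a pool.

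Osteoclast precursors need a second signal beside RANK, and the ITAM pathway supplies it. Receptors such as OSCAR, TREM2 and SIGLEC15 have short cytoplasmic tails and pair in the membrane with the adaptors FcRγ (encoded by Fcer1g) or DAP12 (encoded by Tyrobp), which carry the immunoreceptor tyrosine-based activation motif, or ITAM. Src-family kinases phosphorylate the tyrosines of the motif, the kinase SYK docks on them, and SYK together with the Tec-family kinases BTK and TEC leads to activation of phospholipase Cγ2 (encoded by Plcg2). The lipase raises intracellular calcium, which activates the transcription factor NFATc1. GAB2 is a scaffold protein that binds RANK and signalling enzymes.

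The motif itself is shown because it joins the receptors to the kinases. A pattern of a tyrosine codon followed at the third position by a leucine or isoleucine codon, then 6 to 8 codons, then the same arrangement again, was searched in the coding sequences of GENCODE M21 transcripts (GRCm38). Of the 10 genes it was found in Tyrobp (codons 92 to 106 of 114) and Fcer1g (codons 65 to 79 of 86), with 7 codons between the arms in each. The coding sequences read as follows, with the tyrosine, leucine and isoleucine codons of the motif in capitals.
Tyrobp: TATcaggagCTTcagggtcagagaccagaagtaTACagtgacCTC
Fcer1g: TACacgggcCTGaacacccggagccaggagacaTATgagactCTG
The stretches shared 19 of 45 bases and the encoded residue at 5 of 15 codons. Most of these shared residues are the tyrosines and leucines at positions that the search pattern itself set. The same pattern occurred in 2.67% of the 10506 genes past the expression filter with an annotated coding sequence.

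Each group had 1 library, so no difference below has a replicate check, a p-value or a standard error, and each compares these libraries rather than the conditions. The control library held 79399680 counts and the knockdown library 119350322. Levels are CPM, counts per 1000000 of the library, after TMM scaling, a normalisation in edgeR that sets library sizes from the bulk of genes, and brackets hold 95% Clopper-Pearson intervals of the log2 ratio, Cpeb4 shRNA over control, which cover counting error only. A gene was called higher or lower when it differed at least 2-fold, among 12086 genes whose mean reached 1 CPM. The targeted gene Cpeb4 was at 345 CPM in control and 104 CPM in knockdown cells (log2 ratio -1.73). All 8 osteoclast markers examined, among them Ctsk, Acp5 and Calcr, were lower, and their summed level was 47853 CPM in the control and 9698 CPM in the knockdown library. Of 7 macrophage markers 5 passed the filter, and all 5 had log2 ratios below 0 with TMM. Cd68 was lower by more than 2-fold (-1.04) and 4 were within 2-fold, of which Ptprc (-0.13) turned to 0.10 with total counts. The summed levels of all listed macrophage markers were 4830 and 3092 CPM. Mertk is not analysed here, and Adgre1, which encodes the macrophage antigen F4/80, had 12 and 101 counts, under the filter. In bulk samples fewer cells of a type and less RNA per cell cannot be told apart, and the part of these marker differences in the results below was not tested.

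Of the 10 genes 5 were at least 2-fold lower in the knockdown library, against 11.8% of all genes past the filter. The lower genes were the receptor genes Oscar and Siglec15, the adaptor gene Tyrobp, the kinase gene Syk and the scaffold gene Gab2. Only Trem2 was at least 2-fold higher, against 14.6% of all genes, and Fcer1g, Btk, Tec and Plcg2 lay within 2-fold. The log2 ratio was below 0 for 9 of the 10 under TMM scaling, against 47.5% of all genes. Their median was -0.95, where the median of all genes was 0.05. Scaling moved these values together. Total counts in place of TMM added 0.23 to every log2 ratio, and the median of 20 reference genes added 0.33. The 20 reference genes themselves were spread, from -0.80 (Pgam1) to 1.01 (Rplp0) with TMM, 13 below 0 and 7 above. The share of higher genes among all genes past 2-fold was 55.4% with TMM, 70.5% with total counts and 75.8% with reference genes.

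**Figure D1:**
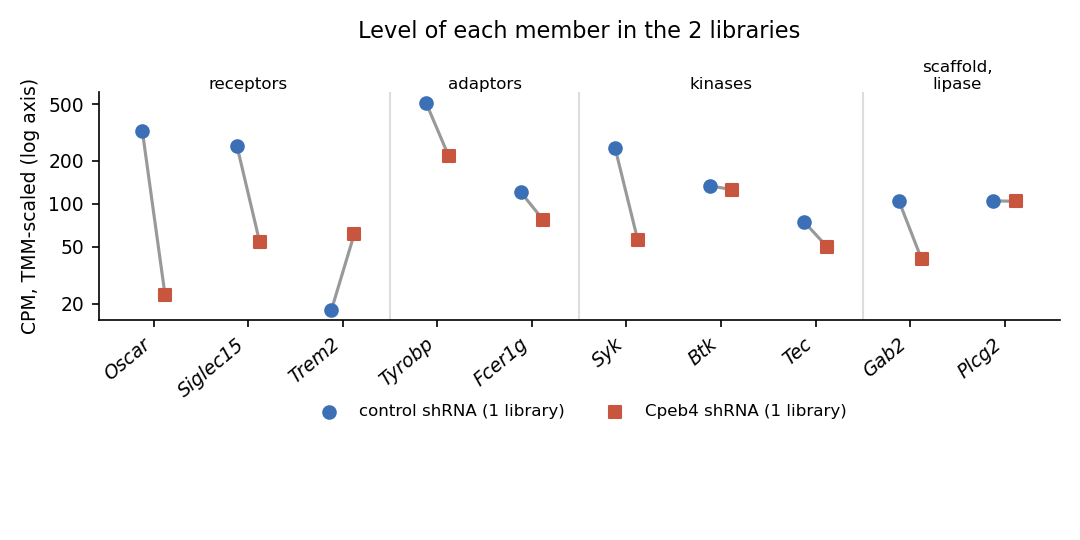
CPM after TMM scaling (log axis) of each gene in the control library (blue circle) and the knockdown library (red square), 1 library per group, with genes grouped by role. Oscar has the widest gap between its symbols, Trem2 is the single gene with its red square clearly above its blue circle, and the markers of Btk and Plcg2 lie nearly level.

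Among the receptors, Oscar stood lowest. Oscar encodes a collagen-binding receptor of osteoclasts that pairs with FcRγ. Oscar (ENSMUSG00000054594; mm10 chr7:3609813-3616157, minus strand) had 23731 counts (324 CPM) in the control library and 2969 counts (22.9 CPM) in the knockdown library. The control value was thus 14.1-fold above the other, a log2 ratio of -3.82 (-3.88 to -3.76), at percentile 0.695 of all genes past the filter ordered by ratio. The ratio ranged from -3.86 with upper-quartile scaling to -3.49 with reference genes.

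Siglec15, which encodes a sialic acid-binding receptor that pairs with DAP12 in osteoclasts, was lower too. It had 18746 counts (256 CPM) in the control library and 7014 counts (54.2 CPM) in the knockdown library. The level was 4.72-fold lower (log2 ratio -2.24, -2.28 to -2.20), at percentile 2.78.

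Trem2, the gene of a lipid- and lipoprotein-binding receptor that also pairs with DAP12, went the other way. Trem2 (ENSMUSG00000023992; chr17:48346401-48354147, plus strand) had 1323 counts (18.1 CPM) in the control library and 7910 counts (61.1 CPM) in the knockdown library. It was 3.38-fold higher (log2 ratio 1.76, 1.67 to 1.84), at percentile 93.9. It was the only receptor gene of the 3 that was higher in the knockdown library.

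The adaptor genes differed less than the receptor genes. Tyrobp (chr7:30413760-30417585, plus strand) had 37485 counts (512 CPM) in the control library and 27975 counts (216 CPM) in the knockdown library, which is 2.37-fold lower (log2 ratio -1.24, -1.27 to -1.22). With reference-gene scaling the log2 ratio was -0.91, within 2-fold. Fcer1g (chr1:171229572-171234365, minus strand) had 8883 counts (121 CPM) and 9967 counts (77.0 CPM), a log2 ratio of -0.65 (-0.70 to -0.61). Both adaptor genes lay below 0 under each of the 5 scalings.

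A ratio of 2 genes within a library does not depend on how libraries are scaled, so receptor and adaptor were also compared with each other. Trem2 had 0.0353 counts per Tyrobp count in the control library and 0.283 in the knockdown library, an 8.01-fold higher ratio (log2 change 3.002, 95% counting interval 2.92 to 3.09). Siglec15 counts per Tyrobp count went from 0.5001 to 0.251 (log2 change -0.996, -1.04 to -0.95). Oscar counts per Fcer1g count went from 2.67 to 0.298, an 8.97-fold lower ratio (log2 change -3.16, -3.23 to -3.10). Relative to its adaptor gene, Trem2 was thus higher in the knockdown library, and Oscar and Siglec15 were lower. These are ratios of counts, not of levels per length. Between the adaptors, Tyrobp counts per Fcer1g count went from 4.22 to 2.81 (log2 change -0.59).

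**Figure D2:**
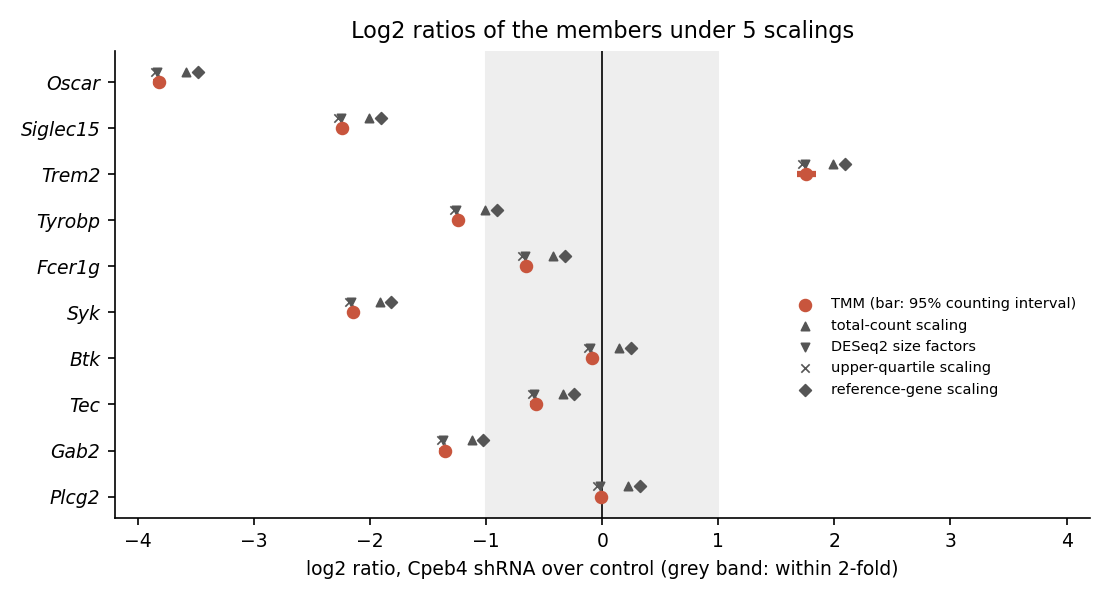
Log2 ratio, Cpeb4 shRNA over control, of each gene with TMM scaling (red, bar for the 95% counting interval, often narrower than the point) and with the 4 other scalings (grey symbols), 1 library per group. Oscar, Siglec15, Syk and Gab2 stay left of the grey 2-fold band under each scaling, Trem2 stays right of it, Tyrobp enters it with reference genes at -0.91, and Btk and Plcg2 lie on both sides of 0.

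Of the kinase genes, Syk was lower by more than 2-fold and the Tec-family genes were within 2-fold. Syk (ENSMUSG00000021457; chr13:52583173-52648792, plus strand) had 18013 counts (246 CPM) in the control library and 7167 counts (55.4 CPM) in the knockdown library. It was 4.44-fold lower (log2 ratio -2.15, -2.19 to -2.11), at percentile 3.02. Btk (chrX:134542336-134583570, minus strand) had 9803 counts (134 CPM) and 16277 counts (126 CPM). Its log2 ratio of -0.09 (-0.13 to -0.05) became 0.14 with total counts and 0.24 with reference genes, so Btk had no direction that held. Tec (chr5:72755716-72868483, minus strand) had 5459 counts (74.5 CPM) and 6487 counts (50.1 CPM), a log2 ratio of -0.57 (-0.62 to -0.52). Syk counts per Btk count went from 1.84 in the control library to 0.440 in the knockdown library (log2 change -2.06, -2.11 to -2.01).

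Downstream of the kinases, the scaffold gene Gab2 was lower and the lipase gene Plcg2 was level. Gab2 (chr7:97081586-97308946, plus strand) had 7715 counts (105 CPM) in the control library and 5318 counts (41.1 CPM) in the knockdown library, 2.56-fold lower (log2 ratio -1.36, -1.41 to -1.31). Plcg2 (chr8:117498291-117635142, plus strand) had 7688 counts (105 CPM) and 13497 counts (104 CPM). Its log2 ratio was -0.01 (-0.05 to 0.03) with TMM, 0.22 with total counts and 0.32 with reference genes. Syk counts per Plcg2 count went from 2.34 to 0.531 (log2 change -2.14), and Gab2 counts per Plcg2 count from 1.004 to 0.394 (log2 change -1.35). None of the 10 genes shared exon bases with another annotated gene.

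Levels of different genes can be compared within a library only per length, so counts were divided by the union of GENCODE M21 exons and scaled to the same sum in each library (transcripts per 1000000, TPM). TPM carry no TMM scaling, so they serve for order within a library. Their ratios between libraries differ from the log2 ratios above. Tyrobp was the most abundant of the 10 in both libraries, with 1982 TPM in the control and 1002 TPM in the knockdown library. In the control library Siglec15 (572 TPM), Oscar (453 TPM) and Fcer1g (358 TPM) followed, then Btk (110 TPM), Syk (67.9 TPM), Plcg2 (63.1 TPM), Tec (51.4 TPM) and Gab2 (44.1 TPM), and Trem2 was last (9.43 TPM). In the knockdown library Fcer1g (272 TPM) followed Tyrobp, and after it came Siglec15 (145 TPM) and Btk (123 TPM). Plcg2 (75.0 TPM) and Tec (41.4 TPM) came next, Oscar and Trem2 were level at 38.4 and 38.2 TPM, and Gab2 (20.6 TPM) and Syk (18.3 TPM) were last. By both lengths Syk stood above Plcg2 and Tec in the control library and below them in the other. Without replicates the order of close neighbours has no check. With the length of the principal transcript in place of all exons, Fcer1g (385 TPM) stood above Oscar (380 TPM) and Tec (60.0 TPM) above Plcg2 (52.2 TPM) in the control library. In the knockdown library Btk (122 TPM) then stood above Siglec15 (116 TPM), and Syk (25.5 TPM) above Gab2 (16.5 TPM).

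The place of Trem2 depended on the length used, because a long transcript with a retained intron enters its exon union (4946 bases, against 1088 for its principal transcript). With principal transcripts Trem2 had 35.5 TPM in the control library, still the lowest of the 10, and 139 TPM in the knockdown library, below Tyrobp and Fcer1g only. Of the summed level of the 3 receptor genes, Trem2 took 0.912% in the control and 17.2% in the knockdown library with exon unions, and 3.99% and 48.6% with principal transcripts. Oscar took 43.8% and 17.3% with exon unions, and 42.8% and 10.9% with principal transcripts. Siglec15 went from 55.3% to 65.4% by the first length and from 53.3% to 40.5% by the second, so its share had no fixed direction. Among the kinases, Syk went from 29.6% to 9.98% and Btk from 47.9% to 67.4% with exon unions, and the principal transcripts gave 36.2% to 13.1% for Syk and 41.6% to 62.9% for Btk.

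**Figure D3:**
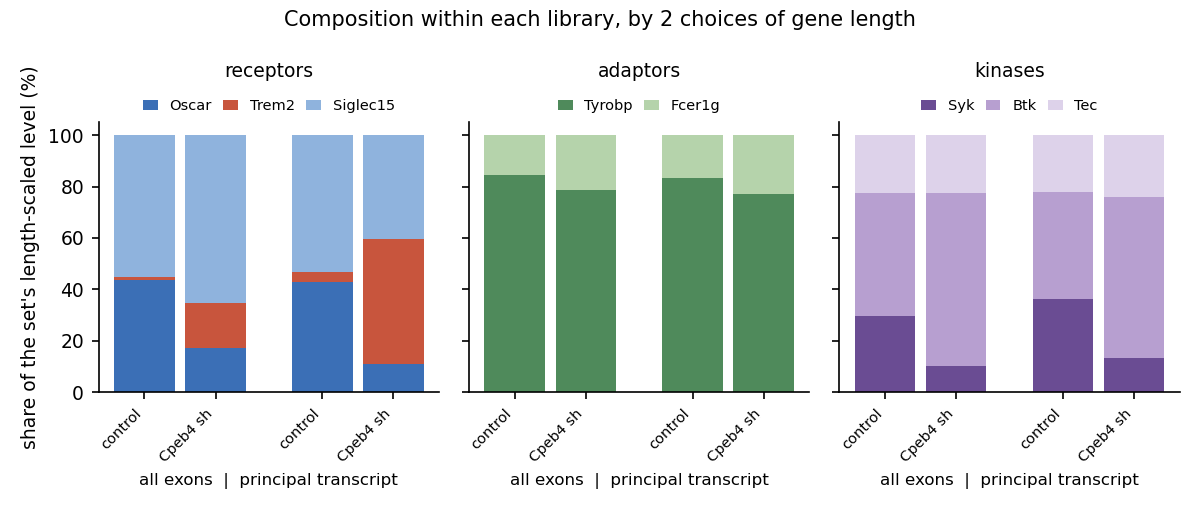
Share (%) of the summed length-scaled level that each gene took within the receptor, adaptor and kinase sets, for the control and the knockdown library, with lengths from all exons (left pair of bars) or the principal transcript (right pair). Oscar and Syk take smaller shares in the knockdown library by both lengths, and Trem2 a larger one, 17.2% or 48.6%.

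Promoter sequences are shown for Oscar and Trem2, the receptor genes at the opposite ends of the 10. They are RefSeq windows of 300 bases (GRCm38.p6) from 250 before to 50 after the annotated start, written in the direction of transcription. Capitals mark matches, on either strand, to GGAAA (the core bound by NFAT factors), GAGGAA (a PU.1 core), the E-box CACATG (which MITF and related factors can bind) or TGANTCA. The last is a loose AP-1 pattern that allows any base at its centre. GAGGAAA holds both of the first 2 motifs.
Oscar (chr7:3616108-3616407, minus strand): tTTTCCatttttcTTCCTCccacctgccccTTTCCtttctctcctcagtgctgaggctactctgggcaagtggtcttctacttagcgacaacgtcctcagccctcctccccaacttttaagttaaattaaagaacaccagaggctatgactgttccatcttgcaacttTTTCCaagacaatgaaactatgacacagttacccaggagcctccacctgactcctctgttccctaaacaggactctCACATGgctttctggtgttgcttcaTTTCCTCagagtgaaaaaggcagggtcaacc
Trem2 (chr17:48346151-48346450, plus strand): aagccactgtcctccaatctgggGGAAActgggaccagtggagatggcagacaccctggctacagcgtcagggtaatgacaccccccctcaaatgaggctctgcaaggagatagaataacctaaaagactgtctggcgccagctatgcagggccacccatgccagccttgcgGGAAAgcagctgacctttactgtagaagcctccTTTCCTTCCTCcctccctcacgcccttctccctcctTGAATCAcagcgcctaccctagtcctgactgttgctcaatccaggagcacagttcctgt
The Oscar window held 4 matches to GGAAA, 2 to GAGGAA and 1 to CACATG, and the Trem2 window held 3 to GGAAA, 1 to GAGGAA and 1 to TGANTCA. That last match reads TGAATCA, with A at the centre. Of 32851 promoter windows, 61.3% held GGAAA, 28.3% GAGGAA, 14.2% CACATG and 7.81% TGANTCA. The 7 genes with a promoter in the table had 8 windows. A gene was counted if any of its windows matched, whereas the shares are per window. GGAAA was found for 6 of the 7 genes, GAGGAA for 4, and CACATG (Oscar) and TGANTCA (Trem2) for 1 each. The E-box CACGTG occurred for 1 (Plcg2), against 7.15% of windows, and the longer PU.1 sequence GAGGAAGT for 0, against 3.20%. A match is a description of the letters and not a measured site. Of the genes of factors that can bind such motifs, Nfatc1, Spi1 (PU.1) and Mitf are given here. Each was within 2-fold, with log2 ratios of -0.05 (0.18 with total counts and 0.28 with reference genes), -0.38 and 0.62. Genes of other NFAT factors, of relatives of MITF and of AP-1 are not reported here. Whether any of these factors acts on the 10 genes was not tested.

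CPEB proteins bind the cytoplasmic polyadenylation element of 3′ untranslated regions, so TTTTAT and TTTTAAT were searched on the transcript strand of the principal transcripts. Of the 10 genes 2 held a match, against 60.4% of 10391 genes past the filter with an annotated 3′ untranslated region. The median length of those regions was 1016 bases, and 8 of the 10 genes have a shorter one or none, so these shares are not like for like. The matches are in capitals, with 11 bases on each side.
Oscar, 465 bases before the annotated end: gtaatttatgtTTTTATatatatgaatg
Gab2, 735 bases before the annotated end: tgcaggtccctTTTTATtatggtgtaga
The region of Gab2 spans 3927 bases and that of Oscar 951, and Syk had no match in 2997 bases. Such elements sit beside the poly(A) signal, so the last 200 bases before the annotated end were also counted separately. There 0 of the 8 genes with a region of that length had a match, against 30.3% of 9215 genes. The annotated transcript of Siglec15 ends at its stop codon, so no such region was searched for it. The principal transcript of Cpeb4 itself has 2312 bases with such a region of only 45, whereas its exon union has 6369. Ends in other transcripts were not searched for any gene. A missing match therefore holds for the annotated principal transcript only, and whether the cells used these ends was not tested.

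The other genes of the pathway were taken from 7 lists of 130 symbols, of which 81 genes passed the filter. Of these, 12 were higher and 14 lower by at least 2-fold, beside the 14.6% and 11.8% of all genes given above. The other 55 were within 2-fold, as were 8900 of the 12086 genes past the filter. The median log2 ratio of the 81 was -0.28 with TMM, and 0.05 with reference genes.

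Of 24 symbols in the list of other receptors that pair with DAP12 or FcRγ, 12 were in the table, and the other 12 are not analysed here. Past the filter were 5, 1 of them the adaptor gene Hcst, with 3 higher and 1 lower, beside 14.6% and 11.8% of all genes. Without the filter 6 of the 12 were higher and 3 lower, and the median log2 ratio was 0.67 in place of 1.16. Of all 18987 genes without the filter, 3217 were higher and 2930 lower. The receptor genes added in this way had a mean under 1 CPM, so their ratios rest on few counts. Clec4d, a C-type lectin receptor gene, had 52 counts (0.710 CPM) and 317 counts (2.45 CPM), a log2 ratio of 1.79 (1.36 to 2.24), and passed the filter only through the knockdown library. Clec5a, whose lectin pairs with DAP12, had 571 counts (7.80 CPM) in the control library and 2761 counts (21.3 CPM) in the knockdown library (1.45). Cd300lb, another DAP12 partner, had 54.7 and 122 CPM (1.16). Cd300c2 was lower, with 384 and 137 counts (-2.31), and Hcst, the gene of the related adaptor DAP10, was at -0.51.

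Inhibitory receptors and the phosphatases that oppose ITAM signals went both ways, with 4 of 23 higher, 7 lower and a median of -0.56. Of all genes, 14.6% were higher and 11.8% lower. With upper-quartile scaling 2 were higher, and with total counts or reference genes 5 were lower. Sirpa, the gene of the receptor for CD47, had 39382 counts (538 CPM) in the control library and 11409 counts (88.2 CPM) in the knockdown library (log2 ratio -2.61). Cblb, a ubiquitin ligase gene, was at -2.04, whereas its paralog Cbl was at 0.57. Ceacam1 was at -1.83. Dok2, which encodes an adaptor that restrains Ras signalling, was at 1.57, Cd300a at 1.49 and the lectin gene Cd72 at 1.03 (0.99 with upper-quartile scaling). The phosphatase genes Ptpn6 (SHP-1) and Inpp5d (SHIP1) were within 2-fold, at 0.49 and -0.56.

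Of the Src-family kinases and their regulators 7 of 9 were within 2-fold, near the share of all genes past the filter (8900 of 12086). The list median of -0.13 turned to 0.10 with total counts and 0.20 with reference genes. Src, the kinase gene required for the resorbing function of osteoclasts, had 40539 counts (554 CPM) in the control library and 31479 counts (243 CPM) in the knockdown library, a log2 ratio of -1.19. It was -0.95 with total counts and -0.85 with reference genes, within 2-fold. Fyn was higher (14.3 and 33.8 CPM, 1.25). Pag1, which encodes an anchor for the inhibitory kinase CSK, and Csk itself were at 0.99 and 0.65. The former reached 1.22 with total counts. Lyn and the phosphatase gene Ptpra were at -0.42 and -0.87. Of the relatives of Syk and the Tec kinases 1 of 4 passed, Txk, with 85 and 289 counts (0.94, and 1.18 with total counts).

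Adaptors and exchange factors held the extremes of these lists. Blnk encodes an adaptor that SYK phosphorylates and that brings BTK and phospholipase Cγ2 together. It had 55 counts (0.751 CPM) in the control library and 3065 counts (23.7 CPM) in the knockdown library, 31.5-fold higher (log2 ratio 4.98, 4.60 to 5.39), at percentile 99.6 of all genes, and was under 1 CPM in the control library. BLNK is best known from B cells, and of 5 B cell markers the table listed only Cd79a, with 7 and 13 counts. Lcp2, the gene of the related adaptor SLP-76, was at 226 and 186 CPM. Lat2, a membrane adaptor gene, was lower (295 and 102 CPM, -1.53), and so was Nck2, with 338 counts (4.62 CPM) and 18 counts (0.139 CPM), a log2 ratio of -5.05 (-5.82 to -4.37). Nck2 passed the filter only through the control library. Lat was at -0.80, and Grap and the exchange factor gene Vav2 were higher, at 1.42 and 1.13. In all, 3 of 19 were higher, 2 lower and 14 within 2-fold. Of all genes past the filter 14.6% were higher, 11.8% lower and 8900 of 12086 within 2-fold. The list median was -0.24, and 0.09 with reference genes.

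Phospholipase C, phosphoinositide 3-kinase and second messenger genes were within 2-fold in 14 of 15 cases, beside 8900 of 12086 for all genes. The list median was -0.34. The exception was Itpr1, a calcium channel gene of the endoplasmic reticulum opened by the product of phospholipase C, with 451 counts (6.16 CPM) in the control library and 4461 counts (34.5 CPM) in the knockdown library (log2 ratio 2.49). Plcg1, the paralog of Plcg2, was at -0.34 (-0.003 with reference genes). The kinase subunit genes split, with Pik3cb and Pik3r1 both at -0.80 and Pik3cg and Pik3cd at 0.85 and 0.69, the last pair at 1.18 and 1.03 with reference genes. Orai1, the gene of the store-operated calcium channel, was at -0.77.

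Among ligands, partners and sheddases 3 of 9 were lower and 0 higher, beside 11.8% and 14.6% of all genes, and the median was -0.51. Itgb3 and Itgav, which encode the αvβ3 integrin that also signals through DAP12 and SYK in osteoclasts, were both lower. Itgb3 was at 561 CPM in control and 52.6 CPM in knockdown cells (log2 ratio -3.41), and Itgav had 1733 and 511 CPM (-1.76). Apoe, the gene of a TREM2-binding apolipoprotein, had 3410 and 1199 counts (-2.33), opposite to Trem2. The genes of the proteases that shed TREM2, Adam17 and Adam10, were at 0.97 and 0.72 (1.20 for Adam17 with total counts, 1.05 for Adam10 with reference genes). For comparison, the RANK gene Tnfrsf11a was at -0.79 and the macrophage colony-stimulating factor receptor gene Csf1r at -0.61. Strand was not given, and Cd72, Lat2, Adam17, Itgav, Lyn, Ptpra, Ptpn6, Plcg1, Csf1r, Itpr1, Orai1, Grap, Lat and Lcp2 share exon bases with another annotated gene, so their counts are uncertain.

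**Figure D4:**
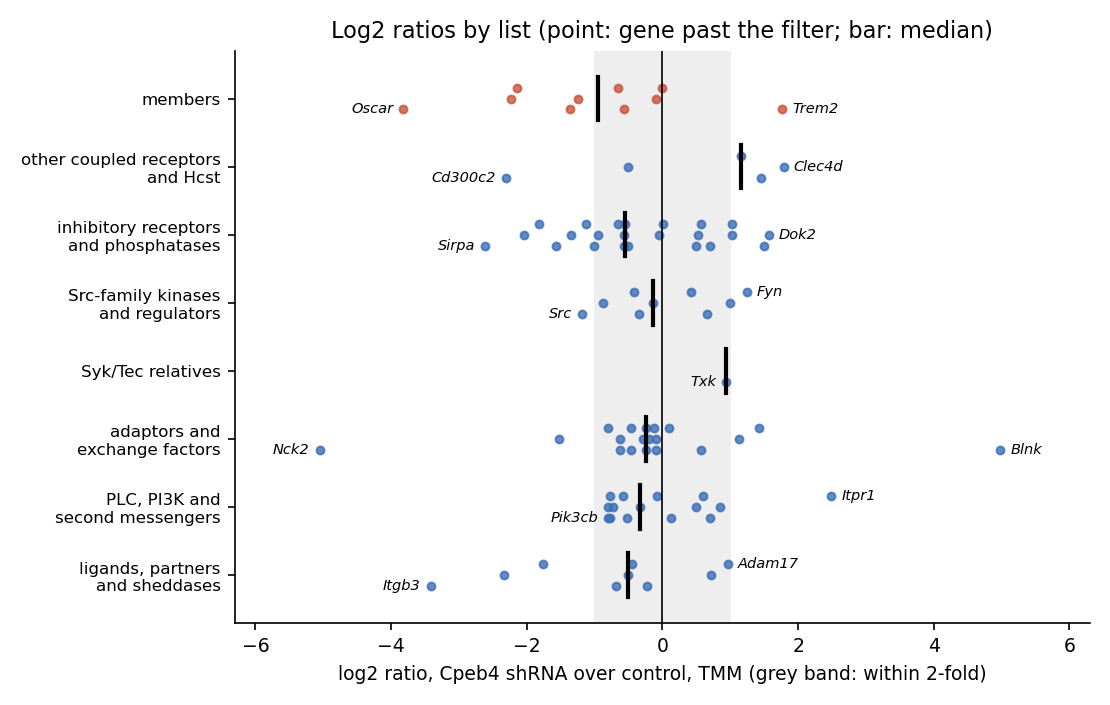
Log2 ratio, Cpeb4 shRNA over control with TMM scaling, of each gene past the filter (points) in the 10 genes (red) and the 7 pathway lists (blue), with list medians as black bars and 1 library per group. Most points lie in the grey 2-fold band, and 8900 of the 12086 genes past the filter were also within 2-fold. Blnk at 4.98 and Nck2 at -5.05 stand farthest out, each under 1 CPM in 1 of the libraries. The list of other coupled receptors holds 5 points, with Hcst among them.

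The genes nearest to Oscar, Syk and Trem2 in level were found by the Euclidean distance of log2 CPM over the 2 libraries. Nearest to Oscar was Qprt, which encodes an enzyme of NAD synthesis, at a distance of 0.21 (285 CPM in control and 24.5 CPM in knockdown cells). Nyap2 lay farther off, at 0.55 (284 and 32.9 CPM). Nearest to Syk was Siglec15 (0.07), itself one of the 10, and then Fblim1 (0.09) and Tmem204 (0.14). Close to Trem2 were Cdca4 (0.05) and the small nucleolar RNA host gene Snhg1 (0.06). With 2 libraries such closeness describes a pair of levels and nothing more.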

How the data were processed

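The table deposited by the authors held whole-number read counts per gene, 1 column per library, 79399680 and 119350322 in total. Reads were aligned with HISAT2 to mm10, per the submitters' processing notes. Neither the labels nor the table name the counting tool, its strand setting or its annotation. Every listed gene had at least 1 count in both libraries, and genes absent from the table are not analysed here. Counts were scaled with TMM in edgeR 4.0.16 (R 4.3.3), and genes whose mean reached 1 CPM were kept. No test was run with 1 library per group. Intervals are exact Clopper-Pearson intervals at 95%. Those of ratios between 2 genes are Wald intervals from the 4 counts. PCR copies are not separate molecules, so intervals cover counting error only. Identifiers were matched to GENCODE M21 (18935 of 18987). Coordinates and lengths come from it. No protein sequences were used, and the ITAM was searched in translated coding sequences.

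The 10 genes and all lists were chosen with earlier results of these data known. Named genes were the 10, the 3 highest and 3 lowest of each list, a preset group and the 3 nearest genes to Oscar, Syk and Trem2. Some genes that this rule takes are not reported here. Lcp2, Cd79a, Cbl, Dok1, Dok3 and the osteoclast and macrophage markers named lie outside that rule. Of these, Lcp2, Cbl, Dok1 and Dok3 were chosen after their values were seen. Alternatives were 4 scalings (total counts, DESeq2 1.42.0 size factors, upper quartile, 20 reference genes), pseudocounts, filters, size thresholds and thinning of the deeper library. The computations were tested on simulated data. There far fewer genes changed than here, in equal numbers up and down, so the choice of scaling was not tested.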

Additional observations from a re-analysis of the deposited data

How the results depend on the processing

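No paired analysis was possible because there was a single library for either shRNA. Over 7 alternatives (4 scalings, 2 pseudocounts and thinning), 8 of the 10 genes kept their sign. The exceptions were Plcg2, at 0.22 with total counts and 0.32 with reference genes, and Btk, at 0.14 and 0.24. All but Tyrobp (-0.91 with reference genes) stayed on their side of 2-fold. Not all 7 alternatives could change a sign. A pseudocount was added to both libraries and cannot do so. DESeq2 and upper-quartile scaling moved every log2 ratio by only -0.015 and -0.036. The median of the 10 was -0.72 with total counts and -0.62 with reference genes. At 4-fold 0 of them were higher and 3 lower. The pathway lists' median was -0.051 with total counts and 0.049 with reference genes, which gave 19 higher. Of list medians, Src-family kinases turned to 0.10 and 0.20 under these scalings, and adaptors to 0.093 with reference genes. At 1.5-fold 21 pathway genes were higher and 27 lower, and at 4-fold 2 and 6. Over all genes the median was 0.28 with total counts and 0.38 with reference genes, the latter with 2830 higher and 902 lower. Without a filter 3217 were higher and 2930 lower, at 10 CPM 1025 and 907, at 1.5-fold 3191 and 2674, and at 4-fold 582 and 426. Fewer or more genes pass such filters and thresholds by design. Lengths from principal transcripts were chosen after seeing the data. A count of 3 equals 0.0410 CPM in the control and 0.0232 CPM in the knockdown library.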
